A study of Mus musculus with 92 samples.

Results

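Eif4g2, Eif4g1 and Eif4g3 encode the mouse eIF4G proteins, and they are described here with their binding partners in intestinal tissue, organoids and fetal spheroids in which Eif4g2 was deleted. The 10 genes were taken by their names in the deposited count tables, out of 54532 gene rows, and all 10 were found. They are the scaffolds Eif4g1, Eif4g2 and Eif4g3, the cap-binding proteins Eif4e and Eif4e2, the helicases Eif4a1 and Eif4a2, the eIF4E inhibitors Eif4ebp1 and Eif4ebp2, and the poly(A)-binding protein Pabpc1. The question was whether the paralogs and partners of Eif4g2 change at the RNA level when it is deleted, and whether the same RNAs change in organoids given A-485.

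The eIF4F complex brings the ribosome to capped mRNAs. In it eIF4E holds the cap, eIF4A unwinds the leader, and eIF4G1 or eIF4G3 bridges both to eIF3 and, through the poly(A)-binding protein, to the tail of the mRNA. The protein of Eif4g2, also called DAP5, resembles the middle and end of eIF4G1 but has no eIF4E-binding region, and it takes part in initiation on a subset of mRNAs. The 4E-BP proteins compete with eIF4G for eIF4E until mTOR phosphorylates them, and eIF4E2 binds caps but does not join eIF4G1. In the intestine, crypts hold the dividing stem and progenitor cells, and villi hold their differentiated descendants.

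Poly(A) RNA was sequenced in 92 libraries that form 21 groups. In tissue, mice with Eif4g2 flox/flox ("homozygous") or flox/+ ("heterozygous") alleles all carried an inducible Cre and all received tamoxifen. With Rosa26-CreER, a driver active in most cell types, tissue was taken on day 9 (crypts from 4 homozygous and 5 heterozygous mice, villi from 5 and 5). With Vil1-CreER, whose Vil1 promoter is active in intestinal epithelium, it was taken at 3 months after 4 daily injections of 100 mg/kg (crypts from 3 and 4, villi from 6 and 4). Organoids, which are epithelial cultures grown in medium with EGF, Noggin and R-spondin, all carried Rosa26-CreER. A first set of flox/flox organoids was treated for 24 hours with 0.5 µM 4-hydroxytamoxifen (4-OHT) or its solvent DMSO and collected on day 6 (3 and 3). A second set of flox/flox, flox/+ and +/+ ("CreER-only") organoids was treated with 4-OHT in every group (4 each, day 6). Fetal intestinal spheroids with Rosa26-CreER, flox/flox (6 lines) or flox/+ (5 lines), were treated with 4-OHT or DMSO (day 6). Organoids with Rosa26-CreER and no 4-OHT, 1 line +/+ and 3 lines flox/flox, were grown for 4 days with DMSO or with A-485, an inhibitor of the p300 and CBP acetyltransferases, at 3, 5 or 10 µM (4 each). The heterozygous and flox/+ controls of the deletion therefore lacked 1 intact allele themselves, and they had met Cre and the inducer too.

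Library totals ran from 8652040 to 16436145 counts in the A-485 series and from 14790237 to 37611126 elsewhere, and all 10 genes passed the low-count filter in every comparison. All 8 epithelial markers were detected in every group, whereas the 8 immune markers summed to at most 2.69 CPM (counts scaled to 1e+06 per library) in any culture library. The 8 stromal markers summed to 9.11–227 CPM in flox/+ spheroids on DMSO and 12.0–176 on 4-OHT. In flox/flox spheroids they summed to 6.74–21.9 CPM on DMSO and 0.413–7.22 on 4-OHT, so the genotypes did not overlap on 4-OHT. Crypt markers (Lgr5, Olfm4, Ascl2, Lyz1, Mki67, Top2a) moved with the deletion in crypts and organoids. Their sum was 1377–6091 CPM in Rosa26-CreER homozygous crypts and 13390–18084 in heterozygous ones (6 of 6 lower). It was 819–1508 against 7456–10005 with Vil1-CreER (5 of 6 lower) and 2403–3516 in flox/flox against 8477–9952 in flox/+ organoids of the second set (5 of 6 lower). In the first organoid set the sum was 554–812 on 4-OHT and 2050–2458 on DMSO. Spheroids varied widely, at 191–1141 on 4-OHT and 239–5619 on DMSO in flox/flox lines, with overlap. In flox/+ spheroids the sums were 316–7217 on 4-OHT and 272–11043 on DMSO. In bulk RNA, a change in the share of a cell type and a change in RNA per cell cannot be told apart. Mitochondrial transcripts took 18.9 ± 5.0% (SD, n = 4) of the counts in Rosa26-CreER homozygous crypts and 8.55 ± 2.5% (n = 5) in heterozygous ones. Immune and stromal marker sums reached 1626 and 2107 CPM in these homozygous crypts, against at most 368 and 682 in the heterozygous ones (0 of 8 genes called in either list). With Vil1-CreER the mitochondrial share was 35.7 ± 5.0% (n = 3) in homozygous and 23.3 ± 6.1% (n = 4) in heterozygous crypts. Immune marker sums in Vil1-CreER villi were 46.0–192 CPM in homozygous and 243–418 in heterozygous libraries, without overlap, and 4 of 8 immune genes were lower, as were 4 of 8 in Rosa26-CreER villi. The part of these in the results was not tested. Y-linked Ddx3y was counted in 1 of 4 homozygous and 5 of 5 heterozygous Rosa26-CreER crypt libraries. In Rosa26-CreER villi it was counted in 2 of 5 homozygous and 5 of 5 heterozygous libraries. Genotype and Y-linked transcripts are therefore largely confounded in both comparisons. With a covariate for Y-linked transcripts, Rosa26-CreER crypts gave 4 members called and villi gave 3, the same numbers as without it. Over all genes the calls went from 3198 to 2725 in crypts and from 4504 to 2967 in villi. With so few homozygous libraries that held Ddx3y, this fit cannot fully separate the 2. In the spheroids, both libraries of the sixth flox/flox line stood apart in their eIF4G values, so results there are also given without that line.

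Levels between genes are compared here as CPM per kilobase of the gene lengths in the tables. Each gene has a single length there: 7301 bases for Eif4g1, 10166 for Eif4g2 and 11063 for Eif4g3. These need not be the lengths of the transcripts present in these cells. The order of genes, the shares and the sums per kilobase in this report depend on them. In heterozygous Rosa26-CreER crypts (n = 5, mean ± SD), Pabpc1 was at 234 ± 23, Eif4a1 at 91.9 ± 4.2 and Eif4g1 at 62.3 ± 6.8. Eif4ebp2 followed at 44.5 ± 5.9, Eif4g2 at 34.4 ± 0.75, Eif4a2 at 19.3 ± 1.9 and Eif4e at 9.97 ± 0.82. Eif4ebp1 (7.59) and Eif4e2 (7.23) overlapped each other, and Eif4g3 was lowest at 4.11 ± 0.38. In CreER-only organoids the order was alike at the ends, with Pabpc1 at 331 ± 14 and Eif4g3 at 9.24 CPM per kilobase. There Eif4g1 was at 148 ± 5.4 and Eif4g2 at 128 ± 3.6, so that Eif4g2 supplied 44.9 ± 1.2% of the length-adjusted eIF4G RNA and Eif4g3 3.24 ± 0.12%. Eif4g3 was thus a minor eIF4G RNA in all of these controls.

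The members lie on different chromosomes in GRCm38, apart from Eif4g1 and Eif4a2. Eif4g2 (ENSMUSG00000005610) spans chr7:111067750-111083030 on the minus strand, Eif4g1 (ENSMUSG00000045983) chr16:20668313-20692884, and Eif4g3 (ENSMUSG00000028760) chr4:137993022-138208508, both on the plus strand. Eif4a2 (ENSMUSG00000022884) spans chr16:23107444-23114136 on the plus strand and overlaps Rfc4, a protein-coding gene on the other strand. The strand setting of the counting is not given in the sources used here, so Rfc4 values are set beside those of Eif4a2.

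The promoters of the paralogs Eif4g1 and Eif4g3 and of Eif4a2 are shown because Eif4g3 and Eif4a2 rose together in most deletion comparisons while Eif4g1 did not. Each is the 250 bases before a RefSeq start site (GRCm38.p6, plus strand, 5′ to 3′), and capitals mark matches to the searched motifs. RefSeq start sites need not be those used in these cells.
Eif4g1, chr16:20672477-20672726: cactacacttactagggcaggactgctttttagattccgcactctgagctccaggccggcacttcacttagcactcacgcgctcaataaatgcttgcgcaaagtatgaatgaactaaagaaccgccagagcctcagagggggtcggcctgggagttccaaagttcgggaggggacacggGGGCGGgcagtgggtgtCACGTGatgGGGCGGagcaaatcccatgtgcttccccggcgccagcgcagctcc
Eif4g3, chr4:137993205-137993454: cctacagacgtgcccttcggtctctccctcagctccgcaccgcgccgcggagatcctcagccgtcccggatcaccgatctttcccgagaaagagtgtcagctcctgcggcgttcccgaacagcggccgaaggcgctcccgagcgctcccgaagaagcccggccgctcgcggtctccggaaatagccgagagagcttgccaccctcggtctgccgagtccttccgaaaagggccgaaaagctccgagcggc
Eif4a2, chr16:23107218-23107467: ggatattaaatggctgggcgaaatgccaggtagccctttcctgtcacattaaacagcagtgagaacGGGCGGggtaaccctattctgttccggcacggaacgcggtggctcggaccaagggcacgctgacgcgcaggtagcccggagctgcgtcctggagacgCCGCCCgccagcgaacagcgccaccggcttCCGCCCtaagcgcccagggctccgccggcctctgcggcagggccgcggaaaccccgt
The motifs searched, on both strands, were the GC box GGGCGG, the CCAAT box, the cAMP response element TGACGTCA, the ATF4-type element TGATGNAA and the E-box CACGTG. Of 32841 mouse promoter windows of this length, 32.7% held the GC box, 33.9% the CCAAT box, 1.55% TGACGTCA, 3.45% TGATGNAA and 6.02% CACGTG. The Eif4g1 window held 2 GC boxes and 1 CACGTG. The Eif4a2 window held 3 GC boxes, and the Eif4g3 window held none of the 5 motifs. Eif4g3 and Eif4a2 shared none of these letters in their windows. The Eif4g1 and Eif4g3 windows lie inside the gene spans given above, so they are not the sequence before the annotated gene start. Shared regulation was not tested. Entries were found for 7 of the 10 members, and Eif4g2, Eif4ebp1 and Pabpc1 had none.

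Every deletion comparison was fitted across all expressed genes with edgeR's quasi-likelihood test, and a gene was called at a Benjamini-Hochberg adjusted p below 0.05. Of the 9 members other than Eif4g2, 3 were called in Rosa26-CreER crypts, 2 higher and 1 lower in homozygous tissue, where 20.2% of all tested genes were called. In Rosa26-CreER villi 2 of 9 were called, both higher, against 33.2% of all genes. Vil1-CreER crypts had 6 of 9 called (4 higher, 2 lower; 29.3% of all genes), and Vil1-CreER villi had 4 of 9, all higher (42.5%). In culture, the first organoid set had 4 of 9 called (2 higher, 2 lower; 35.4% of all genes). In the second set 7 of 9 were called against flox/+ (2 higher, 5 lower; 46.8%) and 6 of 9 against CreER-only (2 higher, 4 lower; 45.3%). The flox/flox spheroids had 2 of 9 called on 4-OHT against DMSO (1 higher, 1 lower; 19.1%). On 4-OHT, 3 of 9 were called between flox/flox and flox/+ spheroids (1 higher, 2 lower; 10.5%). The members were therefore called about as often as other genes in several of these comparisons, and the median log2 change of the 9 lay between -0.20 and 0.28. Eif4a2 was called higher in 9 of 9 comparisons and Eif4g3 in 6 of 9, while Eif4ebp2 and Pabpc1 were each called lower in 6 of 9. None of these 4 genes was called in the opposite direction. These fits did not pair libraries of the same line. With the line as a block, Eif4g3 was also called higher in flox/flox spheroids (edgeR adjusted p = 0.00868). The comparisons within the second organoid set share the flox/flox libraries, and those within the spheroids share the flox/flox 4-OHT libraries.

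**Figure D1:**
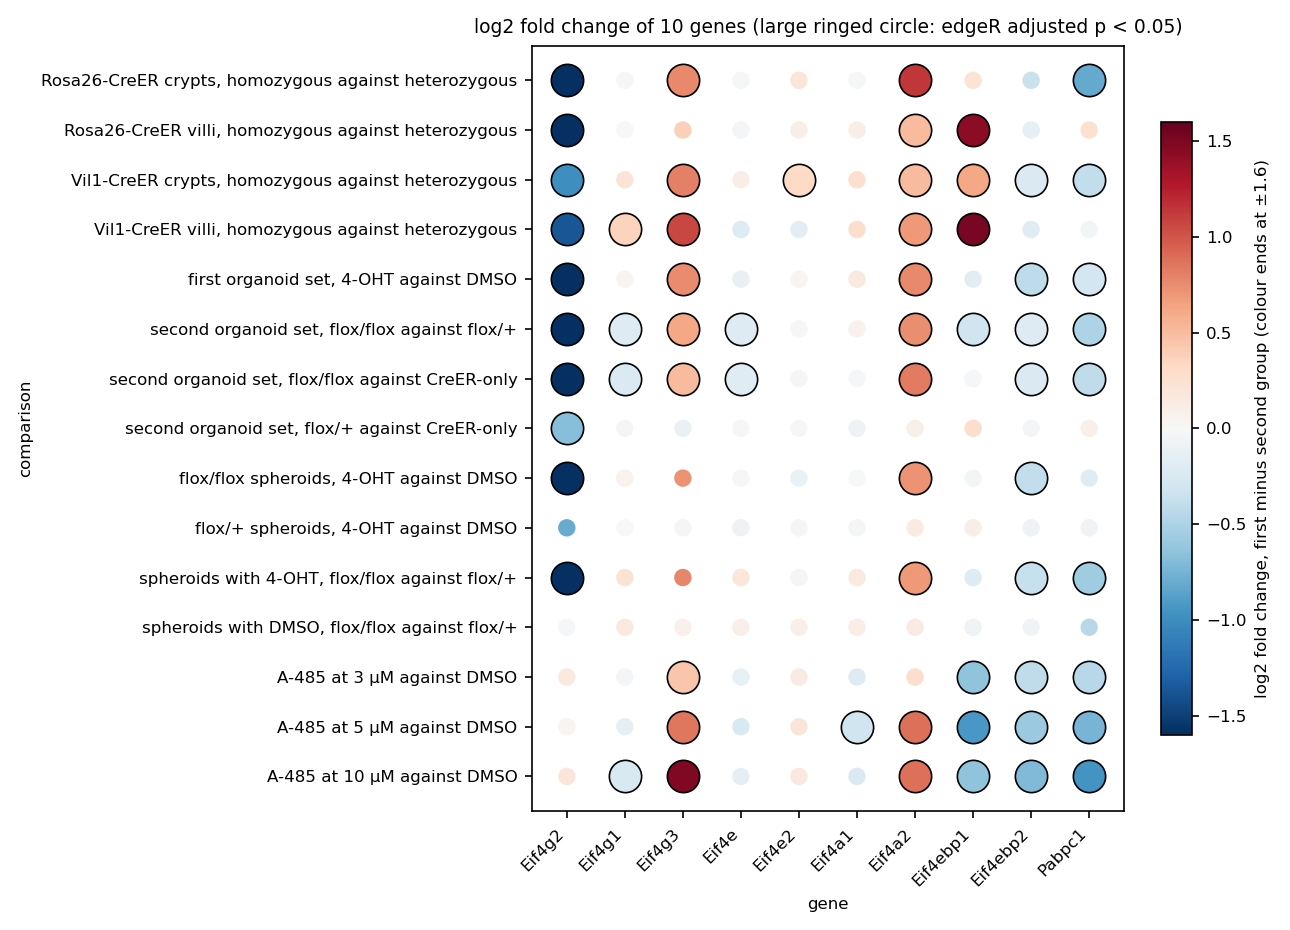
Log2 fold change (colour, ending at ±1.6) of the 10 genes (columns) in 15 comparisons (rows). Large ringed dots are genes called by edgeR at adjusted p below 0.05. Eif4g2 is lower in all 9 comparisons with a flox/flox deletion, Eif4a2 is higher in the same 9 and Eif4g3 in 6 of them. The 3 comparisons of genotype or 4-OHT with no flox/flox deletion show no other member called. The 3 A-485 comparisons, in organoids without 4-OHT, show 4, 6 and 6 members called.

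Among the comparisons of genotype or of 4-OHT, the 3 in which no flox/flox cells were deleted gave no called member other than Eif4g2. Between flox/+ and CreER-only organoids 0 of 9 were called by edgeR (0.113% of all genes; 2 of 9 at unadjusted p below 0.05, 0 by DESeq2), and their log2 changes lay between -0.11 and 0.29. In flox/+ spheroids on 4-OHT against DMSO 0 of 9 were called (0% of all genes, 0 at unadjusted p below 0.05, 0 by DESeq2), with changes of -0.09 to 0.15. The same lines gave both arms, but this edgeR fit did not pair them. It held 15 of 15032 genes at unadjusted p below 0.05 (0.0998%). Eif4g2, whose arms did not overlap, was not called in it either, so these zeros cannot show that the other members stayed unchanged. Between flox/flox and flox/+ spheroids on DMSO 0 of 9 were called (0% of all genes; 1 at unadjusted p below 0.05, 0 by DESeq2). That 1 gene was Pabpc1, at -0.44 ± 0.15 (SE; edgeR adjusted p = 0.636).

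Eif4g2, the deleted gene, was lower than in the control in every flox/flox group given tamoxifen or 4-OHT, which checks the labels. In Rosa26-CreER crypts it was at 67.9, 95.02, 81.9 and 98.3 CPM in the 4 homozygous libraries and between 337 and 357 in the 5 heterozygous ones. The groups did not overlap, and the log2 fold change was -1.98 ± 0.11 (SE; edgeR adjusted p = 7.74e-05). In Rosa26-CreER villi the homozygous libraries held 48.3–61.7 CPM and the heterozygous ones 319–384 (-2.70 ± 0.11, adjusted p = 9.14e-08). The villus fall was larger than the crypt fall, by -0.62 ± 0.15 on the log2 scale (interaction, adjusted p = 0.0163). This call was lost with library totals (adjusted p = 0.0991) and with no low-count filter (0.0515). Eif4g2 was one of 3 of 10 members called in that interaction (11.5% of all genes).

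At 3 months with Vil1-CreER, the Eif4g2 difference was smaller in size. Homozygous crypts held 240, 240 and 231 CPM and heterozygous ones 437–488 (-0.99 ± 0.08, adjusted p = 0.000127). Homozygous villi held 134–182 CPM (median 147) and heterozygous ones 357–475 (-1.37 ± 0.12, adjusted p = 2.38e-06). No library of either comparison overlapped the other group. The floxed exons are not given in the sources used here, and reads from exons that remain are counted in the gene, so these values do not give the share of deleted alleles.

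In culture, Eif4g2 fell from 755, 705 and 794 CPM on DMSO to 144, 148 and 144 on 4-OHT (first organoid set, -2.37 ± 0.08, adjusted p = 6.14e-05). In the second set it stood at 1257–1335 CPM in CreER-only, 790–834 in flox/+ and 220–270 in flox/flox organoids, in 3 groups that did not overlap. Loss of 1 allele gave -0.68 ± 0.07 (flox/+ against CreER-only, adjusted p = 0.000415), and flox/flox stood at -1.73 ± 0.07 against flox/+ (adjusted p = 3.86e-10) and -2.41 ± 0.07 against CreER-only (adjusted p = 5.67e-12). In flox/flox spheroids the 6 DMSO libraries lay between 706 and 1202 CPM (median 823) and the 6 on 4-OHT between 84.9 and 224 (median 111), a fall of -2.82 ± 0.24 (adjusted p = 4.46e-07). In flox/+ spheroids, 4-OHT libraries held 335–646 CPM and DMSO libraries 669–1163, without overlap, at -0.81 ± 0.24 (adjusted p = 1). With the line as a block this value was -0.80 with an adjusted p of 0.0159. Between the genotypes on 4-OHT the difference was -2.02 ± 0.23 (adjusted p = 3.15e-05), and on DMSO Eif4g2 was not called. The 4-OHT effect differed between genotypes by -2.01 ± 0.33 (interaction, adjusted p = 0.00425), and Eif4g2 was the 1 member of 10 called there (1.62% of all genes).

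**Figure D2:**
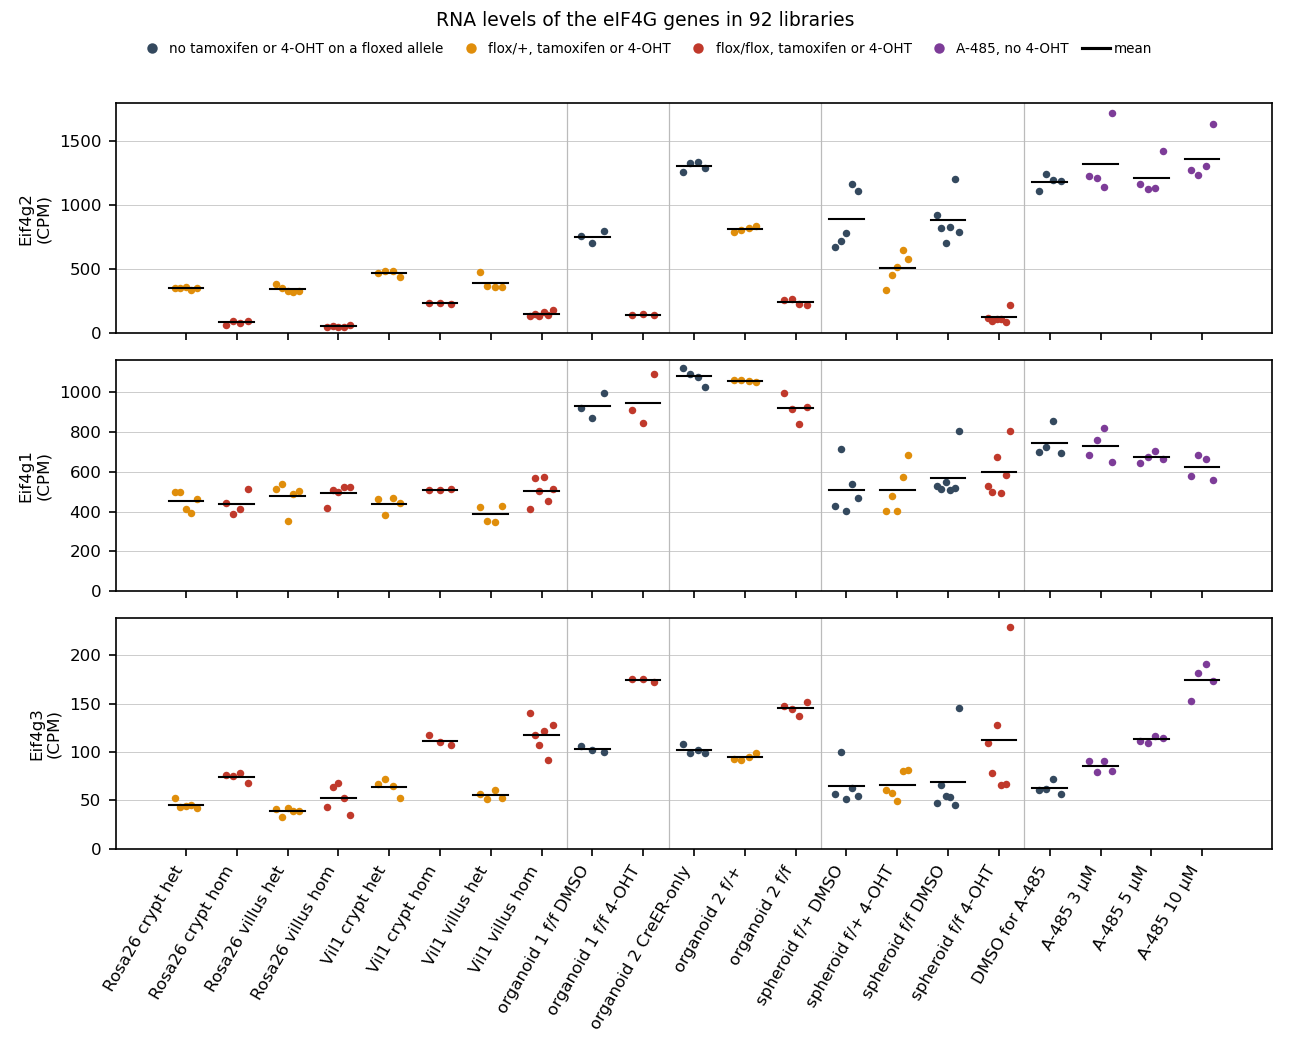
CPM of Eif4g2, Eif4g1 and Eif4g3 (3 panels) in each of the 92 libraries, by group; points are libraries and bars are group means. Eif4g2 is lower in every flox/flox group after tamoxifen or 4-OHT than in its control, Eif4g3 is called higher in 6 of those 9 comparisons, and Eif4g1 in 1.

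Eif4g3, the minor paralog that can take the place of eIF4G1 in eIF4F, was higher after deletion. In Rosa26-CreER crypts the homozygous libraries held 76.0, 74.96, 78.2 and 67.6 CPM and the heterozygous ones 52.6, 43.1, 44.5, 45.4 and 41.8. Every homozygous library was above every heterozygous one, and the fold was 1.70 (log2 0.77 ± 0.10, edgeR adjusted p = 0.00122). In Rosa26-CreER villi homozygous libraries held 43.3, 63.9, 68.2, 52.1 and 35.3 CPM and heterozygous ones 33.0–42.3. The groups overlapped through the fifth homozygous library, and Eif4g3 was not called (0.38 ± 0.16, adjusted p = 0.0983). Without any 1 library the value lay between 0.29 and 0.50 and was called in 1 of 10 fits.

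With Vil1-CreER, Eif4g3 was at 118, 110 and 107 CPM in homozygous crypts and 67.5, 71.7, 65.2 and 52.3 in heterozygous ones (0.80 ± 0.11, adjusted p = 0.00129). Homozygous villi held 91.8–140 CPM (median 119) and heterozygous ones 56.7, 51.5, 61.3 and 52.7. This was the largest Eif4g3 difference in tissue, at 2.09-fold (1.06 ± 0.12, adjusted p = 2.19e-05), and the groups did not overlap. The difference between the villus and crypt effects of genotype on Eif4g3 was not called with either driver, and it was 0.28 on the log2 scale with Vil1-CreER and -0.27 with Rosa26-CreER.

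In the first organoid set Eif4g3 rose from 107, 102 and 101 CPM on DMSO to 175, 176 and 172 on 4-OHT (0.76 ± 0.07, adjusted p = 0.000475). In the second set it was 138–151 CPM in flox/flox, 91.9–99.4 in flox/+ and 99.2–108 in CreER-only organoids. The rise was 0.62 ± 0.05 against flox/+ (adjusted p = 2.76e-07) and 0.51 ± 0.05 against CreER-only (adjusted p = 1.92e-06), and flox/+ was not called against CreER-only (-0.11). Loss of both alleles, not of 1, therefore went with a called rise in these organoids. The flox/flox spheroids varied more, from 45.1 to 146 CPM on DMSO (median 54.2) and from 65.7 to 229 on 4-OHT (median 94.2). The sixth line gave the highest value in both arms, and the groups overlapped (0.71 ± 0.31, adjusted p = 0.12). With the line as a block the change was 0.69 (adjusted p = 0.00868), and without both libraries of the sixth line it was 0.75 (adjusted p = 0.0228). On 4-OHT, flox/flox spheroids stood 0.78 ± 0.33 above flox/+ ones (adjusted p = 0.143), and without that line 0.44 (adjusted p = 0.205). The 4-OHT effects of the genotypes on Eif4g3 differed by 0.70 ± 0.46 (interaction, adjusted p = 0.56).

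Eif4g1, the main eIF4G scaffold, was called in 3 of the 9 comparisons, by small amounts. In Rosa26-CreER crypts homozygous libraries held 442, 387, 415 and 512 CPM and heterozygous ones 394–501, which overlapped throughout. The log2 difference was 0.00 ± 0.10 (edgeR adjusted p = 0.987), with a 95% interval from -0.20 to 0.21. In Rosa26-CreER villi the ranges were 417–525 and 353–541 CPM, with a difference of -0.01 ± 0.12 (adjusted p = 0.977; interval -0.24 to 0.23). The crypt interval did not reach the 0.77 seen for Eif4g3 in the same crypts. In Vil1-CreER crypts homozygous libraries held 510, 508 and 515 CPM, all above the heterozygous 381–467, but the gene was not called (0.22 ± 0.09, adjusted p = 0.114).

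Eif4g1 was called higher in 1 of the 9 deletion comparisons and lower in 2. In Vil1-CreER villi homozygous libraries held 416–576 CPM (median 509) and heterozygous ones 347–429, with overlap (0.36 ± 0.13, adjusted p = 0.0427). That call held in 2 of 10 fits that left out 1 library, and the adjusted p reached 0.133 without the third heterozygous library. It was 0.055 with DESeq2's size factors and 0.0517 with no low-count filter. In the second organoid set Eif4g1 was 841–995.2 CPM in flox/flox, 1054–1065 in flox/+ and 1028–1123 in CreER-only organoids. It was lower in flox/flox by -0.20 ± 0.06 (adjusted p = 0.00707) and -0.23 ± 0.06 (adjusted p = 0.00311), without overlap. In the first organoid set the difference was 0.03 ± 0.12 (adjusted p = 0.875), and in flox/flox spheroids 0.07 ± 0.18 (adjusted p = 0.839). Across the 9 comparisons it ran from -0.23 to 0.36.

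Summed per kilobase, Eif4g1 and Eif4g3 RNA together stood at 66.8 ± 7.0 CPM per kilobase in homozygous and 66.4 ± 6.9 in heterozygous Rosa26-CreER crypts (SD, n = 4 and 5). The sum over all 3 genes was 75.3 ± 7.4 against 101 ± 7.3 there, and Eif4g2 supplied 11.2 ± 1.8% of it against 34.3 ± 2.2%. The share of Eif4g3 was 9.0 ± 1.3% against 4.09 ± 0.40%. In the second organoid set the sum of the 3 genes was 285 ± 6.1 CPM per kilobase in CreER-only, 233 ± 1.6 in flox/+ and 163 ± 11 in flox/flox organoids, and Eif4g1 with Eif4g3 gave 157 ± 5.7, 154 ± 0.48 and 139 ± 9.1 of it. The Eif4g3 rise was therefore small in absolute terms beside the loss of Eif4g2 RNA. In Vil1-CreER villi Eif4g3 was at 10.7 CPM per kilobase in homozygous and 5.02 in heterozygous libraries, and Eif4g2 at 15 and 38.4. Eif4g1, whose call there was lost under several settings, was at 69.2 and 53.2. Eif4g1 with Eif4g3 gave 79.9 ± 8.7 CPM per kilobase in homozygous against 58.2 ± 5.8 in heterozygous villi. There the sums over the 3 genes were 94.9 ± 9.8 and 96.6 ± 9.9. These sums are descriptions without a test of their own, and they depend on the gene lengths used.

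**Figure D3:**
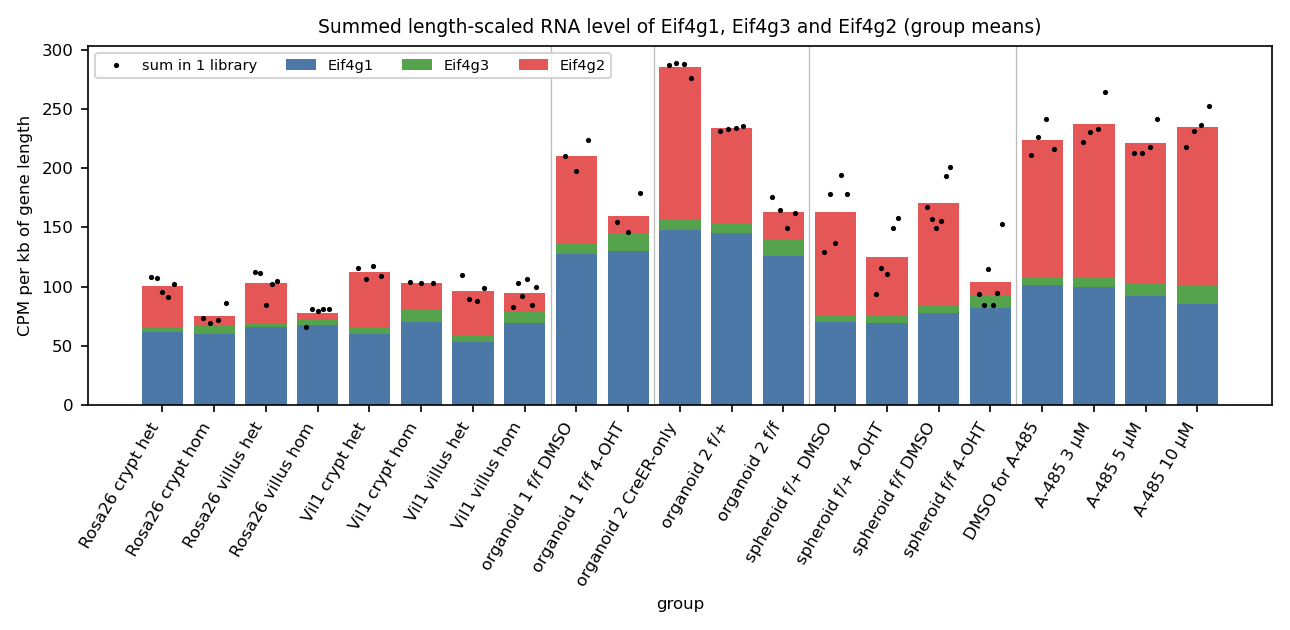
Stacked mean levels of Eif4g1, Eif4g2 and Eif4g3 in CPM per kilobase in the 21 groups, with heights that depend on the gene lengths used. The stack is shorter in flox/flox organoids (163) than in CreER-only ones (285), mainly through the Eif4g2 segment, while in Vil1-CreER villi the stacks are alike in height (94.9 and 96.6).

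Eif4a2, a helicase paralog of Eif4a1, was higher in all 9 deletion comparisons, with log2 changes from 0.51 to 1.14, and the groups did not overlap in 7 of them. In Rosa26-CreER crypts it stood at 202, 270, 163 and 242 CPM in homozygous and 89.9, 94.5, 108, 108 and 115 in heterozygous libraries. This was the largest of the 9 differences, at 2.21-fold (1.14 ± 0.15, edgeR adjusted p = 0.00127). In Rosa26-CreER villi the values were 326–473 against 227–290 CPM (0.51 ± 0.11, adjusted p = 0.00602). The crypt and villus effects were not called as different (-0.53 ± 0.19, adjusted p = 0.0784).

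With Vil1-CreER, Eif4a2 stood at 422, 448 and 420.5 CPM in homozygous crypts against 273–317 in heterozygous ones (0.51 ± 0.08, adjusted p = 0.00272). Scaled to library totals without TMM, this crypt difference was 0.36 with an adjusted p of 0.0975. Homozygous villi held 622–768 CPM (median 647) and heterozygous ones 377–448 (0.70 ± 0.12, adjusted p = 0.000473). In the first organoid set it rose from 312, 325 and 297 CPM to 520, 586 and 488 (0.77 ± 0.10, adjusted p = 0.0014). In the second set flox/flox organoids held 462–566 CPM, above flox/+ (297–338; 0.74 ± 0.07, adjusted p = 1.86e-06) and CreER-only (271–320; 0.84 ± 0.07, adjusted p = 5.74e-07). The flox/+ and CreER-only groups overlapped, as they did for Eif4g3.

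In flox/flox spheroids Eif4a2 was at 333–562 CPM on DMSO (median 484) and 495–1026 on 4-OHT (median 771), higher but with overlap (0.71 ± 0.19, adjusted p = 0.00999). Without the sixth line it was 0.69 (adjusted p = 0.0281). On 4-OHT, flox/flox spheroids stood above flox/+ ones, which held 333–608 CPM (0.69 ± 0.20, adjusted p = 0.0271). The adjusted p of this last difference was 0.0893 with only these groups in the fit and 0.0796 without the fifth flox/+ library on 4-OHT. The 4-OHT effects of the genotypes on Eif4a2 differed by 0.56 ± 0.27 (interaction, adjusted p = 0.363; 0.58 with the line block, adjusted p = 0.0121). Rfc4, which overlaps Eif4a2 on the other strand, was lower or was not called in these comparisons: with Rosa26-CreER it was at -0.71 in crypts and 0.15 in villi (adjusted p = 0.017 and 0.719), and in the first organoid set at -0.82.

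Eif4a1, the main helicase of eIF4F, was called in none of the 9 deletion comparisons by edgeR, with log2 changes from -0.02 to 0.28. The nearest were Vil1-CreER crypts, where the groups did not overlap (0.27 ± 0.09, adjusted p = 0.0559; DESeq2 adjusted p = 0.0125), and Vil1-CreER villi (0.28 ± 0.12, adjusted p = 0.0715). Because Eif4a2 rose, its share of the length-adjusted Eif4a1 and Eif4a2 RNA was 31.8 ± 3.3% in homozygous against 17.3 ± 1.4% in heterozygous Rosa26-CreER crypts. In flox/flox, flox/+ and CreER-only organoids of the second set the share was 31.6 ± 2.5%, 22.5 ± 0.58% and 20.4 ± 1.2%. In Rosa26-CreER villi, where Eif4a2 already made up 51.7 ± 2.1% in heterozygotes, it was 58.5 ± 1.3% in homozygotes.

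**Figure D4:**
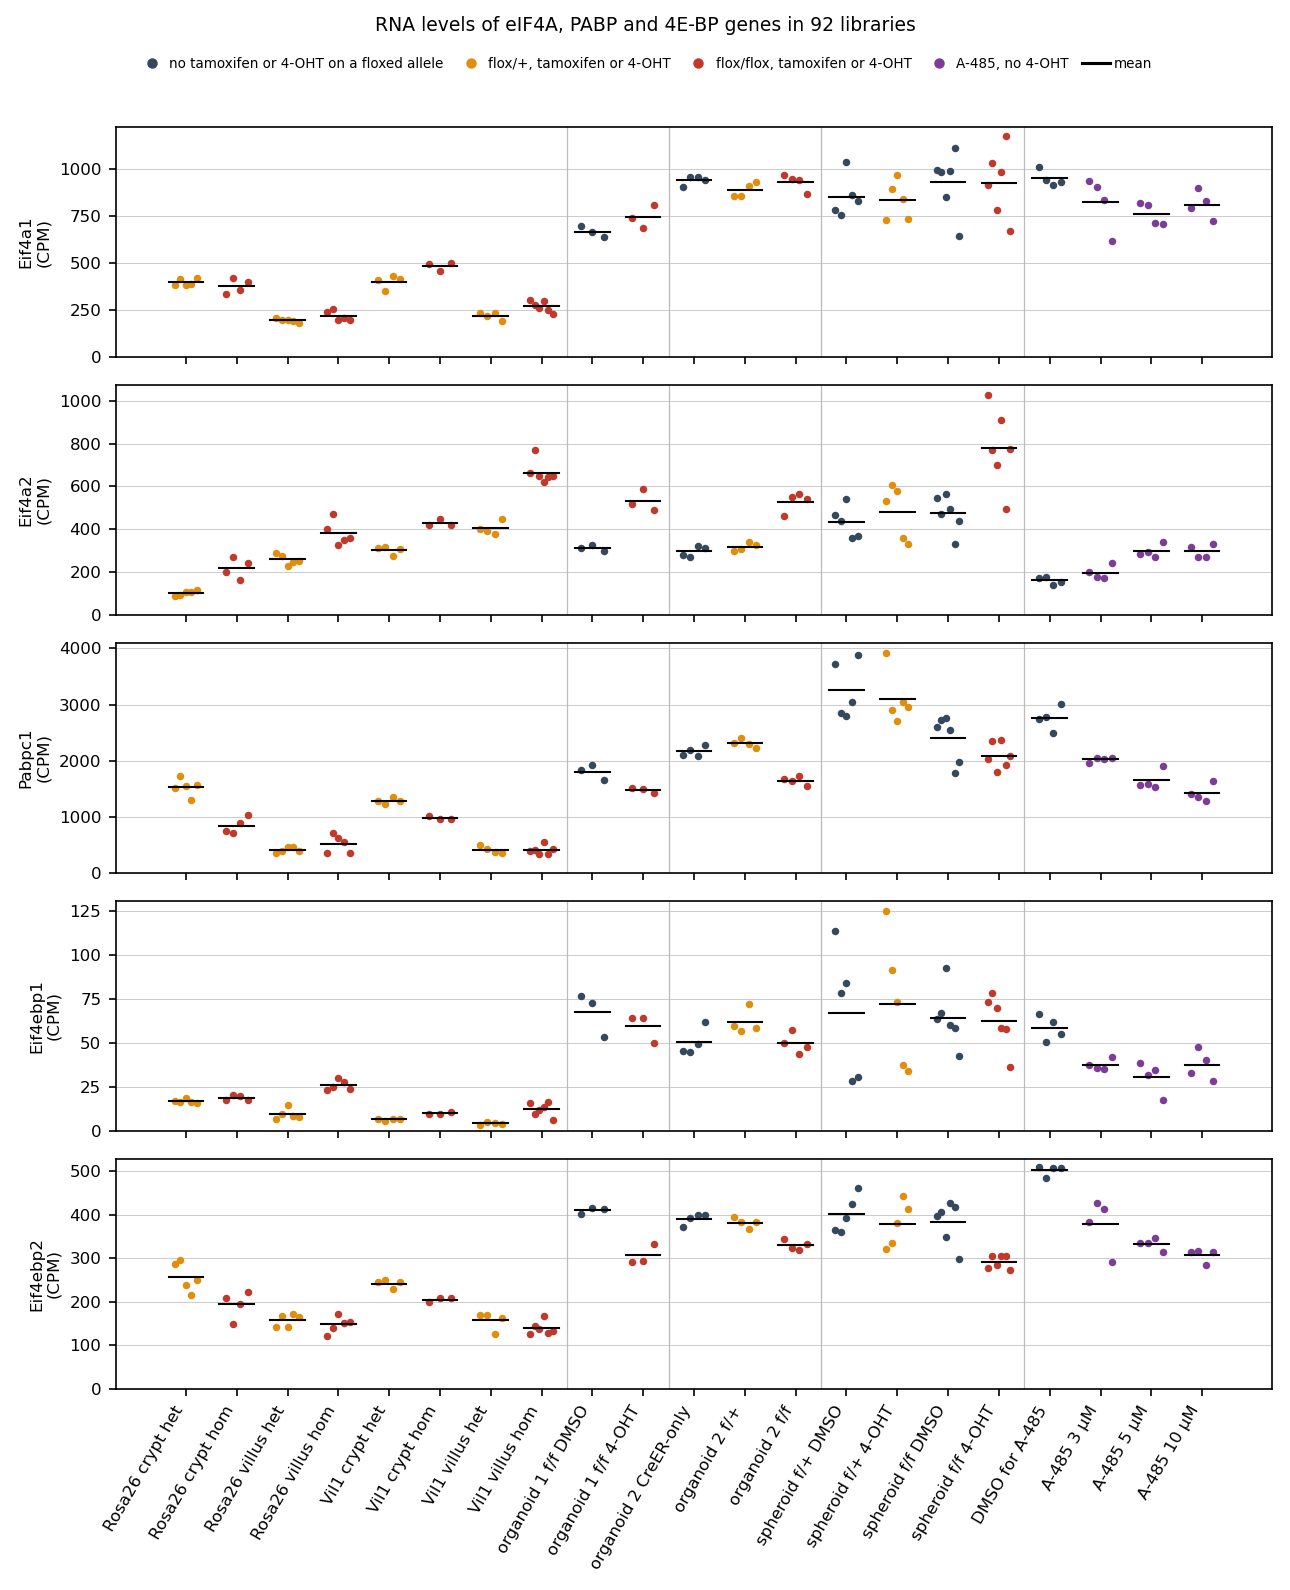
CPM of Eif4a1, Eif4a2, Pabpc1, Eif4ebp1 and Eif4ebp2 (panels) in each of the 92 libraries, by group; points are libraries and bars are means. In the flox/flox groups after tamoxifen or 4-OHT, Eif4a2 is higher than in their controls while Eif4a1 is called in none of the 9 comparisons by edgeR (its groups do not overlap in Vil1-CreER crypts), and Pabpc1 and Eif4ebp2 fall with the A-485 dose.

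Eif4e, which binds the cap, was called lower in the second organoid set only, out of 9 comparisons. It held 125–143 CPM in flox/flox, 150–155 in flox/+ and 146–159 in CreER-only organoids, and flox/flox did not overlap either control. The changes were -0.20 ± 0.05 (adjusted p = 0.00647) and -0.19 ± 0.05 (adjusted p = 0.00902). In the other 7 comparisons Eif4e lay between -0.22 and 0.19 and was not called. Eif4e2, a cap-binding protein known for repression, was called in 1 comparison. In Vil1-CreER crypts it was at 56.9, 59.5 and 62.7 CPM in homozygous and 43.8–54.5 in heterozygous libraries (0.32 ± 0.09, adjusted p = 0.0282), without overlap. Its adjusted p was 0.105 without the third homozygous library and 0.273 with library totals. The Vil1-CreER villus effect was lower than the crypt effect by -0.47 ± 0.14 (interaction, adjusted p = 0.0291), which made Eif4e2 the 1 of 10 members called in that interaction (15.5% of all genes). That call was lost with the animal as a block (adjusted p = 0.117), with library totals (0.484) and with no low-count filter (0.127), and the adjusted p reached 0.0799 when 1 library was left out.

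Eif4ebp1, an inhibitor of eIF4E that is transcribed in amino acid stress, was higher in villi after deletion with both drivers. In Rosa26-CreER villi it stood at 23.3, 25.0, 30.1, 27.6 and 23.9 CPM in homozygous and 6.57, 9.43, 14.4, 8.17 and 7.79 in heterozygous libraries. The groups were far apart, at 2.70-fold (1.43 ± 0.20, edgeR adjusted p = 0.000414). In Vil1-CreER villi homozygous libraries held 6.21–16.52 CPM (median 12.8) and heterozygous ones 3.54–5.08 (1.52 ± 0.27, adjusted p = 0.000572). Crypts differed by driver. With Rosa26-CreER they held 17.4–20.2 against 15.5–18.9 CPM and the gene was not called (0.22). With Vil1-CreER they held 9.39, 9.75 and 10.7 against 5.78–6.89 CPM (0.62 ± 0.12, adjusted p = 0.00707; 0.47 and 0.0710 with library totals). The genotype effect on Eif4ebp1 was larger in villi than in crypts with Rosa26-CreER, by 1.33 ± 0.23 (adjusted p = 0.00187). With Vil1-CreER this difference was 0.93 ± 0.34 (adjusted p = 0.0679).

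In culture Eif4ebp1 was not called higher. In the second organoid set it stood at 43.6–57.3 CPM in flox/flox and 56.7–71.9 in flox/+ organoids, with overlap (-0.31 ± 0.11, adjusted p = 0.0341; 0.114 without the third flox/+ library). In the other culture comparisons it was not called. Eif4ebp1 is one of the genes that ATF4 activates, and a list of 10 such genes (Atf4, Ddit3, Asns, Trib3, Chac1, Sesn2, Psat1, Phgdh, Slc7a11, Aldh18a1) was counted beside it. In Rosa26-CreER villi 3 of the 10 were higher and 3 lower (33.2% of all genes were called), and in Vil1-CreER villi 4 of 9 tested were higher and 3 lower (42.5%). In the second organoid set 2 were higher and 5 lower against flox/+ (46.8%). Its part in the Eif4ebp1 differences was not tested.

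Eif4ebp2, the more abundant 4E-BP RNA in these libraries, went the other way and was lower in 6 of 9 deletion comparisons. In the first organoid set it fell from 402, 417 and 414 CPM to 293, 295 and 333 (-0.42 ± 0.08, adjusted p = 0.00802). In the second set flox/flox organoids held 320–345 CPM, below flox/+ (366–395; -0.21 ± 0.05, adjusted p = 0.00241) and CreER-only (373–400; -0.25 ± 0.05, adjusted p = 0.000815). In flox/flox spheroids it lay at 298–428 CPM on DMSO (median 403) and 274–306 on 4-OHT (median 295), lower with overlap (-0.39 ± 0.11, adjusted p = 0.0163; 0.067 without the low-count filter). On 4-OHT it was lower in flox/flox than in flox/+ spheroids, which held 321–443 CPM (-0.37 ± 0.11, adjusted p = 0.0404; 0.0789 with only these groups in the fit, 0.124 with no low-count filter and 0.121 without the fourth flox/+ library). In Vil1-CreER crypts homozygous libraries held 200, 208 and 208 CPM, below the heterozygous 229–249 (-0.23 ± 0.07, adjusted p = 0.0323; 0.0517 with library totals, 0.0755 with no low-count filter and 0.168 without the second homozygous library). In Rosa26-CreER crypts it was at 149–223 against 215–297 CPM and was not called (-0.35). Villi of neither driver were called.

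Pabpc1, which joins the poly(A) tail to eIF4G, was lower in crypts and organoids. In Rosa26-CreER crypts it stood at 738, 709, 888 and 1024 CPM in homozygous and 1305–1729 in heterozygous libraries, without overlap (-0.82 ± 0.13, edgeR adjusted p = 0.00293). In Vil1-CreER crypts it was 956–1005 against 1227–1344 CPM (-0.39 ± 0.08, adjusted p = 0.0091; 0.0567 without the second homozygous library). Villi did not show this. In Rosa26-CreER villi homozygous libraries spread from 350 to 703 CPM around the heterozygous 362–465, and the genotype effect differed from that in crypts by 1.18 ± 0.27 (interaction, adjusted p = 0.0113; 1.01 and 0.0638 with the animal as a block).

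In the first organoid set Pabpc1 went from 1837, 1923 and 1658 CPM on DMSO to 1508, 1502 and 1426 on 4-OHT (-0.29 ± 0.09, adjusted p = 0.0429), a call that held in 1 of 6 fits leaving out 1 library (adjusted p up to 0.137, without the first DMSO library). It was also lost with library totals (0.0836) and with no low-count filter (0.0857). In the second set flox/flox organoids held 1542–1720 CPM, below 2229–2396 in flox/+ (-0.49 ± 0.05, adjusted p = 3.72e-06) and 2090–2283 in CreER-only (-0.40 ± 0.05, adjusted p = 2.61e-05). On 4-OHT, flox/flox spheroids held 1805–2371 CPM (median 2055), below 2700–3919 in flox/+ (-0.57 ± 0.15, adjusted p = 0.0163; 0.0553 without the first flox/+ library). The DMSO libraries of the same lines showed a similar gap, 1787–2768 against 2793–3879 CPM, though it was not called (-0.44). Within flox/flox spheroids the 4-OHT change was -0.20 and not called. The gap between spheroid genotypes was thus of similar size with and without 4-OHT.

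Heterozygous crypts and villi differed in most members with both drivers. Homozygous crypts and villi were not compared with each other. With Rosa26-CreER 7 of 10 were called between them (71.6% of all genes) and with Vil1-CreER 7 of 10 (64.6%). Pabpc1 was higher in crypts by 1.89 ± 0.19 and 1.63, Eif4a1 by 1.02 and 0.87, Eif4ebp1 by 0.85 and 0.64, Eif4ebp2 by 0.71 and 0.62, and Eif4e by 0.59 with each driver. Eif4a2 was lower in crypts, by -1.33 ± 0.14 and -0.41, as was Eif4e2 (-0.18, a call lost with no low-count filter, and -0.44). Scaled to library totals without TMM, the median of all genes shifted by 0.95 and 0.66, and Eif4e2 with both drivers and Eif4a2 with Vil1-CreER became higher in crypts (0.76, 0.22 and 0.26). The crypt marker sums given above moved with the deletion in crypts. Of the 6 villus markers, none was called in Rosa26-CreER crypts and 2 were lower in Vil1-CreER crypts. In organoids 4 of 6 were lower in the first set and 1 of 6 in the second set against flox/+, with none higher. The part of cell-type shares in the members' differences was not tested.

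A-485 was given to organoids that kept Eif4g2. At 3 µM 4 of 10 members were called (1 higher, 3 lower; 19.2% of all genes), at 5 µM 6 of 10 (2 higher, 4 lower; 49.6%) and at 10 µM 6 of 10 (2 higher, 4 lower; 62%). Members were thus called at about the rate of other genes at the higher doses. From 3 to 5 µM 3 of 10 were called (24.5% of all genes), and from 5 to 10 µM 1 of 10 (18.9%; 2 with the line as a block). The 3 dose comparisons share the same DMSO libraries. Crypt markers moved with the dose as well, summing to 7625–9485 CPM on DMSO, 1104–2134 at 3 µM, 344–464 at 5 µM and 150–221 at 10 µM, where Olfm4 was at 0 in every library. The part of this shift in the values below was not tested.

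Eif4g3 rose at each dose. It held 60.6, 61.3, 72.2 and 56.8 CPM on DMSO, 90.6, 79.2, 90.6 and 80.3 at 3 µM, 112, 109, 117 and 115 at 5 µM, and 153, 182, 191 and 174 at 10 µM. No library of one dose overlapped those of another. The log2 changes from DMSO were 0.44 ± 0.10, 0.85 ± 0.10 and 1.48 ± 0.10 (edgeR adjusted p = 0.00454, 1.87e-06 and 9.1e-10), the last a 2.79-fold rise. The step from 3 to 5 µM was 0.41 ± 0.10 (adjusted p = 0.00581) and that from 5 to 10 µM 0.63 ± 0.10 (adjusted p = 0.000164). Its share of the length-adjusted eIF4G RNA went from 2.53 ± 0.15% to 6.74 ± 0.54% (SD, n = 4). In the 3 flox/flox lines alone the 3 µM change was 0.39 (adjusted p = 0.053).

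Eif4g2 itself was not called at any dose, at 0.16 ± 0.13, 0.03 ± 0.13 and 0.20 ± 0.13 (adjusted p = 0.417, 0.86 and 0.181). It held 1110–1238 CPM on DMSO and 1228–1628 at 10 µM, and the fourth line was highest of its group at all 3 doses (1711, 1419 and 1628). With library totals the 10 µM value was 0.33 (adjusted p = 0.0374). Eif4g1 was at 693–857 CPM on DMSO and 559–687 at 10 µM (-0.26 ± 0.10, adjusted p = 0.0361), and it was not called at the lower doses (-0.03 and -0.14). That 10 µM call was lost with library totals (-0.13, adjusted p = 0.261), in the flox/flox lines alone (0.116), with no low-count filter (0.0826) and without the third DMSO library (0.149). Eif4g3 was thus the eIF4G gene with a called change at all doses.

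Eif4a2 was at 174, 176, 140 and 154 CPM on DMSO, 199, 178, 170 and 244 at 3 µM, 286, 292, 272 and 338 at 5 µM, and 315, 271, 269 and 330 at 10 µM. It overlapped DMSO at 3 µM (0.30, not called; adjusted p = 0.0320 with the line as a block), and it was higher by 0.88 ± 0.12 at both 5 µM (adjusted p = 1.25e-05) and 10 µM (adjusted p = 6.24e-06). The step from 3 to 5 µM was 0.59 ± 0.12 (adjusted p = 0.00203). Unlike Eif4g3, Eif4a2 did not go on rising from 5 to 10 µM (0.00 ± 0.12, adjusted p = 0.992). Rfc4 on the other strand went down, by -0.64, -2.14 and -2.62 at the 3 doses. Eif4a1 was called lower at 5 µM only, at 821, 806, 711 and 705 CPM against 914–1011 on DMSO (-0.32 ± 0.12, adjusted p = 0.0286; 0.0813 in the flox/flox lines alone, 0.0795 with library totals and 0.0768 without the third library at 5 µM). At 10 µM it was called with the line as a block (-0.23, adjusted p = 0.0289). The Eif4a2 share of Eif4a1 and Eif4a2 RNA was 12.1 ± 0.89% on DMSO and 23.0 ± 3.4% at 10 µM.

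The inhibitors and Pabpc1 fell. Pabpc1 held 2749, 2786, 2492 and 3008 CPM on DMSO, 1963–2054 at 3 µM, 1535–1912 at 5 µM and 1285–1635 at 10 µM. Every treated library was below every DMSO library, with changes of -0.45 ± 0.10, -0.74 ± 0.10 and -0.96 ± 0.10 (adjusted p = 0.00334, 5.75e-06 and 1.22e-07). Eif4ebp2 went from 484.6–510 CPM on DMSO to 291–428 at 3 µM, 315–347 at 5 µM and 285–316 at 10 µM (-0.41 ± 0.10, -0.59 ± 0.10 and -0.71 ± 0.10; adjusted p = 0.00924, 0.000112 and 9.14e-06). Eif4ebp1 went from 50.7–66.2 CPM to 34.9–41.8, 17.4–38.2 and 28.0–47.7, with no order by dose (-0.64 ± 0.20, -0.94 ± 0.20 and -0.65 ± 0.20; adjusted p = 0.0307, 0.000823 and 0.00907). Its 3 µM call was lost without the first DMSO library (0.0851), its 3 µM call with library totals (0.0723), and its 3 and 10 µM calls were lost in the flox/flox lines alone (0.163 and 0.0830). Pabpc1 also fell from 3 to 5 µM (-0.30 ± 0.10, adjusted p = 0.0318; 0.0874 without the third library at 5 µM and 0.0593 with no low-count filter). From 5 to 10 µM it was called with the line as a block (-0.22, adjusted p = 0.0385). Eif4e and Eif4e2 were not called at any dose, at -0.25 to -0.14 and 0.13 to 0.21. With only the 3 flox/flox lines, a fit chosen after seeing the data, 1 member was called at 3 µM against 4 with all lines.

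**Figure D5:**
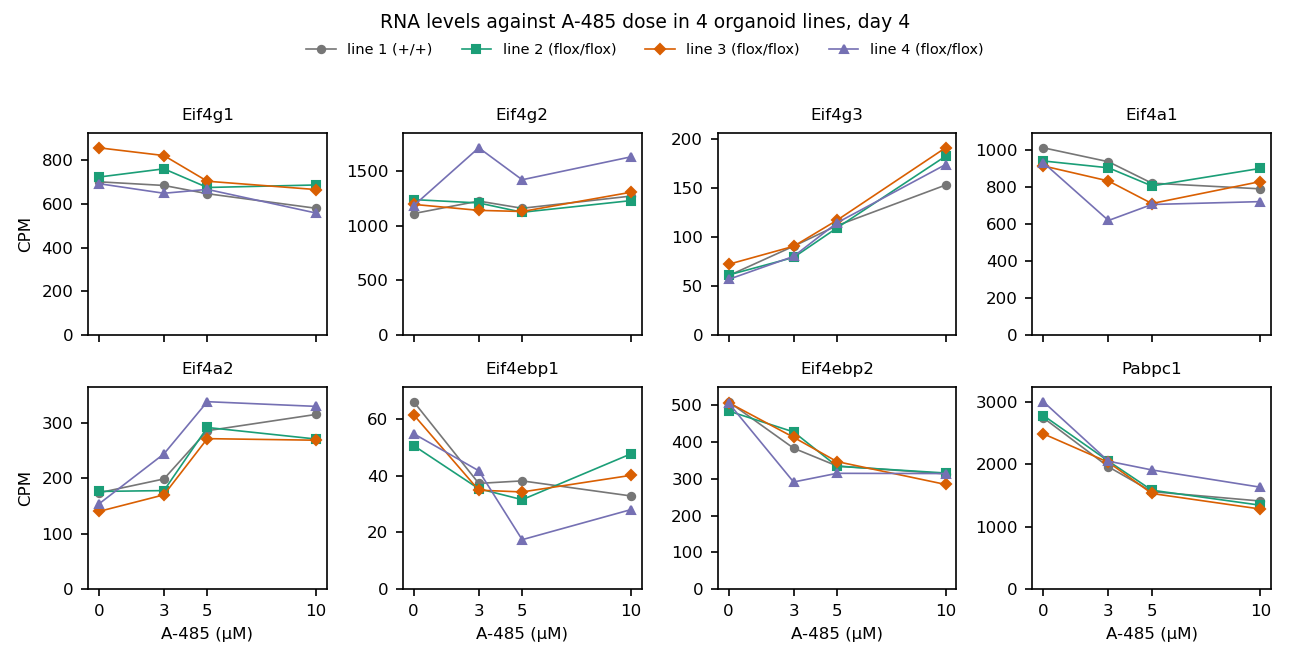
CPM of 8 of the genes against the A-485 dose (0, 3, 5 and 10 µM) in 4 organoid lines, joined by line. Eif4g3 rises at each step from 56.8–72.2 to 153–191 CPM and Pabpc1 falls, Eif4a2 levels off between 5 and 10 µM, and Eif4g2 shows no called change.

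The members' values under deletion and under A-485 can be set side by side in the first organoid set and the 10 µM groups, which share no libraries but share 1 flox/flox line. Eif4g3 was at 0.76 after deletion and 1.48 with A-485, Eif4a2 at 0.77 and 0.88, Eif4ebp2 at -0.42 and -0.71, and Pabpc1 at -0.29 and -0.96. Those 4 genes were called in both, and the other members were not. Eif4ebp1 was not called after this deletion and was at -0.65 with A-485. Eif4g1 was at 0.03 (not called) and -0.26, and Eif4a1 was at 0.16 and -0.23, called in neither. Eif4e and Eif4e2 were called in neither, and Eif4g2 fell after deletion but was not called with A-485. The experiments differ in day and in treatment, so no test was made between them.

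Other genes of cap-dependent initiation were counted from a list of 24, none of them a member. The share of all genes called stands in parentheses. With Rosa26-CreER 1 was higher and 4 lower of 24 tested in crypts (20.2%), and 2 and 4 in villi (33.2%). With Vil1-CreER the counts were 4 and 1 in crypts (29.3%) and 3 and 4 in villi (42.5%). The first organoid set had 4 higher and 3 lower (35.4%), and the second set 4 and 9 of 23 against flox/+ (46.8%) and 4 and 8 against CreER-only (45.3%). In spheroids 3 were higher and 1 lower of 23 on 4-OHT against DMSO in flox/flox (19.1%), and 2 and 3 between the genotypes on 4-OHT (10.5%). The median log2 change of the list lay between -0.10 and 0.04 in these comparisons, against -0.02 to 0.05 over all genes. The edgeR fit called none of the 23 tested in flox/+ against CreER-only organoids (5 at unadjusted p below 0.05), in flox/+ spheroids (0) or between the spheroid genotypes on DMSO (1). In flox/+ spheroids this unpaired fit could call few genes of any kind, as described above.

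The gene of that list with the most constant direction was Pdcd4, whose protein blocks eIF4A, and it was lower in 9 of 9 deletion comparisons. With Rosa26-CreER the log2 change was -1.42 ± 0.17 in crypts and -0.90 ± 0.19 in villi, and with Vil1-CreER it was -1.45 ± 0.09 and -1.16 ± 0.15 (the largest edgeR adjusted p of the 9 was 0.00458). It was at -1.30 ± 0.20 in the first organoid set, -0.81 ± 0.05 and -0.67 ± 0.05 in the second, and -1.12 ± 0.19 and -1.08 ± 0.20 in spheroids. So in these groups the RNA of an eIF4A inhibitor was lower where that of Eif4a2 was higher. In heterozygous tissue Pdcd4 was higher in crypts than in villi (2.38 on the log2 scale with Rosa26-CreER and 1.70 with Vil1-CreER). Eif5, a partner of eIF2 in start-codon choice, was higher in 8 of 9 (0.27 to 0.69), with 0.69 ± 0.08 in Vil1-CreER crypts and 0.65 ± 0.10 in the first organoid set. Rptor, the mTORC1 scaffold that presents 4E-BPs to mTOR, was higher in 6 of 9, among them 0.51 ± 0.07 against CreER-only organoids.

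Further list genes with the largest called changes differed between settings. In Rosa26-CreER crypts Eif4b, an eIF4A cofactor, was at -0.47 ± 0.11. In villi Zfp598, a sensor of collided ribosomes, was at 0.58 with each driver, Pabpc4 at 0.92 ± 0.21 with Vil1-CreER, and with Rosa26-CreER Paip2b at 0.85 ± 0.24 and Mknk2, a kinase of eIF4E, at -0.78 ± 0.14. Eif4h, another eIF4A cofactor, was at -0.63 ± 0.12 in Vil1-CreER villi. In the first organoid set Larp1 was at 0.42 ± 0.10 and Eif4e3 at -1.91 ± 0.24, and in the second Eif4e3 was at -0.76 ± 0.25 and -0.94 ± 0.24. Pabpc4 was at -0.70 ± 0.17 between spheroid genotypes on 4-OHT. With A-485, 1, 2 and 4 list genes were higher and 1, 7 and 8 lower of 23 at 3, 5 and 10 µM, where 19.2%, 49.6% and 62% of all genes were called. Eif4b fell at every dose (-0.35 ± 0.09, -0.85 and -1.44 ± 0.09) and Cyfip1, a binder of eIF4E, rose at every dose (0.32 ± 0.11, 0.71 ± 0.11 and 1.00 ± 0.11). Eif4e3 was at -2.79 ± 0.69 and -2.73 ± 0.69 at 5 and 10 µM, Pabpc4 at -1.04 ± 0.17 at 5 µM, and Mknk1 at 0.47 ± 0.17 and 0.89 ± 0.17. Pdcd4 was at -0.54 and -0.84 at 5 and 10 µM, and Eif5 was not called at any dose.

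Across all 92 libraries, after log2 CPM was centred on each of the study's sets, the members fell into pairs that moved together or apart. These correlations describe libraries that share groups and cell composition. Eif4a2 ran against Eif4ebp2 (Pearson r = -0.77) and Eif4g2 (-0.74) and with Eif4g3 (0.64), while Eif4ebp2 ran with Pabpc1 (0.69). Eif4g1 was near 0 with Eif4g2 (-0.081) and Pabpc1 (-0.022). Among 9359 expressed genes, those most like Eif4g3 were Sbf1 (0.878), Itsn2 (0.869) and Ptpn23 (0.865). Those most like Eif4g1 were Larp1 (0.723), Gcn1l1 (0.714) and Smarca4 (0.698), and those most like Eif4ebp1 were Avpi1 (0.851), Gars (0.743) and Aldoa (0.726).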

How the data were processed

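The authors deposited raw read counts per gene in 4 tables, which also give gene lengths. HISAT2 2.0.5, GRCm38 and mm10 are named in the submitters' processing notes, and the counting program, its annotation and its strand setting are not given in the sources used here. RNA was poly(A)-selected and libraries were directional, per the labels' protocols. Columns were matched to samples by name, and 0 sample columns were left unmapped.

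Each comparison was fitted across all genes that passed filterByExpr, with TMM scaling and the robust quasi-likelihood test of edgeR 4.0.16 (R 4.3.3), and p-values were adjusted by Benjamini-Hochberg over all genes tested. The main fits did not pair libraries of the same line or mouse. Log2 changes carry standard errors, and 95% intervals are 1.96 standard errors on each side. CPM was computed after TMM over all groups of a set, and its precision rests on the totals given in the report. DESeq2 1.42.0, other size factors, library totals, no filter, replicate blocks and leaving out each library were tried, and the fit was tested on simulated counts with 200 changed genes. Leaving out the +/+ line of the A-485 series or the sixth spheroid line was chosen after seeing the data.

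Values per library are given for members called in a comparison and for Eif4g1 and Eif4g3, and the pathway list is named by its 2 largest called rises and falls, with Pdcd4, Eif5, Rptor and Eif4b added for their repeated direction after their values were seen. The members and lists were chosen with earlier results of these data known. Organoids in medium with added Wnt were not analysed here.

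Crypts and villi of 1 mouse, and cultures of 1 line, share their source. In the first organoid set, the spheroids and the A-485 series, the labels name the same lines. Deviations of same-numbered libraries correlated there at 0.401 to 0.540 in the first organoid set and 0.0109 to 0.443 in the A-485 series. They correlated at 0.375 to 0.828 and 0.615 to 0.917 in flox/flox and flox/+ spheroids. In Rosa26-CreER crypts the range was 0.140 to 0.606, but same-numbered homozygous and heterozygous libraries came from different mice. Yet low replicate numbers belong to one series of animal numbers in both genotypes, and high ones to another. Same-numbered crypt libraries correlated at 0.395 on average and others at -0.0986 (villi 0.160 and -0.0415). A covariate for this series gave 3241 called genes in crypts (3198 without it) and 4542 in villi (4504). Eif4e2 was then called in crypts (0.21, edgeR adjusted p = 0.0456). In all remaining comparisons of different lines or mice, numbers are only names. Where labels do not say that replicates are separate cultures or animals, p-values measure the spread between these libraries, which may be technical.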

Additional observations from a re-analysis of the deposited data

Results flagged for a closer look

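Of 180 combinations of a member and a group of 4 to 10 libraries, 16 had 1 library farther from the others than Dixon's 95% critical value, where chance gives about 1 in 20. In the sixth flox/flox spheroid line, Eif4g1 (804.8 CPM) and Eif4g3 (146) were highest on DMSO and Eif4g2 (224) was highest on 4-OHT. The second flox/+ spheroid line on DMSO was highest for Eif4g3 (99.6), and the first on 4-OHT for Pabpc1 (3919). In the fourth line of the A-485 series, Eif4g2 was highest at 3 µM (1711) and 5 µM (1419), Pabpc1 was highest at 5 µM (1912), and Eif4e was lowest at 3 µM (94.5). Eif4ebp2 was lowest in the second line on DMSO (484.6) and in the third at 10 µM (285), both within narrow groups. In Rosa26-CreER villi Eif4g1 was lowest in the first homozygous (417) and the third heterozygous library (353). In Vil1-CreER villi Eif4g2 was highest in the first heterozygous library (475), Eif4ebp2 lowest in the third (126) and Eif4a2 highest in the second homozygous library (768).

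Some effects of the same contrast differed between groups by an interaction test in edgeR. With Rosa26-CreER, the genotype effect in villi differed from that in crypts by -0.62 for Eif4g2, 1.33 for Eif4ebp1 and 1.18 for Pabpc1 on the log2 scale, and with Vil1-CreER by -0.47 for Eif4e2. The 4-OHT effect on Eif4g2 differed between flox/flox and flox/+ spheroids by -2.01.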

How the results depend on the processing

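Counts of called members stayed within 1.5 times their value except as follows. With library totals, Vil1-CreER crypts had 3 in place of 7. With the replicate block, which pairs the same line on 4-OHT and DMSO, 1 in place of 0 was called in flox/+ spheroids. With that block between spheroid genotypes on 4-OHT, where numbers do not pair lines, 1 was called and with only these groups in the fit 2, in place of 4 (2–4 without any 1 library). In the 3 flox/flox lines 1 in place of 4 was called at 3 µM A-485. The Vil1-CreER interaction had 2 with DESeq2, 0 with no low-count filter and 0 with the animal as a block, in place of 1 (0–2 without any 1 library). The spheroid interaction had 2 with the line as a block, in place of 1, as did 10 against 5 µM A-485 (1–2 without any 1 library). Where the numbers do not pair libraries, the block also ended the calls of Eif4ebp2 in Vil1-CreER crypts (adjusted p = 0.0909), Eif4g1 in Vil1-CreER villi (0.0704), Eif4ebp1 in the second organoid set (0.0702), and Eif4a2 (0.124), Eif4ebp2 (0.183) and Pabpc1 (0.0974) between spheroid genotypes on 4-OHT. The causes were not tested.

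Signs turned as follows, outside the crypt against villus differences only where neither the reported value nor the turned one was called. Eif4g1 in Rosa26-CreER crypts was -0.0023 with DESeq2 size factors, -0.096 with library totals and -0.0022 with DESeq2 (-0.045 to 0.045 without any 1 library). In Rosa26-CreER villi it was 0.0059, 0.063 and 0.0058, 0.016 with no filter and 0.0017 with the block (-0.063 to 0.051). In flox/+ spheroids Eif4g1 was 0.0068 with library totals, 0.0014 with the block, 0.0017 with only these groups and 0.0016 without the sixth flox/flox line (-0.133 to 0.148). Between spheroid genotypes on DMSO, Eif4g2 was 0.038 and Eif4g3 -0.242 with the block, and 0.0079 and -0.287 without the sixth line (-0.133 to 0.099 and -0.275 to 0.286). Eif4g1 at 3 µM A-485 was 0.091 with library totals (-0.091 to 0.0465). Between heterozygous crypts and villi, library totals gave 0.863 for Eif4g1 (called, adjusted p = 1.12e-05) and 0.764 for Eif4e2 (called, 3.57e-06; called lower with TMM) with Rosa26-CreER. They gave 0.220 for Eif4e2 and 0.256 for Eif4a2 with Vil1-CreER, both called lower with TMM and not called here. Leaving out 1 library gave Eif4g1 -0.080 to 0.079 in the first organoid set, -0.046 to 0.172 in flox/flox spheroids, -0.00015 to 0.18 in the Rosa26-CreER interaction and -0.078 to 0.202 in the spheroid one. It gave Eif4g3 -0.072 to 0.222 in flox/+ spheroids, and Eif4g2 -0.054 to 0.064 at 5 µM and -0.215 to 0.019 from 3 to 5 µM. Of 756 refits of 125 member values under other settings, 39 lost a call, and these fell on 22 values. Of 1211 refits without 1 library, 77 lost a call, on 16 values. The 125 values include eIF4G values that were not called in the main fit, which could not lose a call.

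Library totals shifted the median of all genes by -0.11 and -0.15 in Rosa26-CreER and Vil1-CreER crypts and by 0.17 in Vil1-CreER villi. The shift was 0.12 at 3 and 10 µM A-485 and 0.29 in the Vil1-CreER interaction. Counts over all genes moved by more than 1.5 times in Rosa26-CreER villi (4504 to 2967 with the Y-linked covariate), the first organoid set (5422 to 3079 with A-485 libraries in the fit), flox/+ against CreER-only organoids (16 to 156 with DESeq2, 60 with no filter, 4 with the block), flox/flox spheroids (2864 to 4649 with the block), flox/+ spheroids (0 to 1 with the block), spheroids on 4-OHT (1577 to 141 with the block, 880 with only these groups), spheroids on DMSO (0 to 9 with DESeq2), 3 µM A-485 (2637 to 1374 in flox/flox lines), the Rosa26-CreER interaction (1904 to 2884 with DESeq2, 1221 with no filter, 777 with the block) and the spheroid interaction (243 to 603 with DESeq2, 123 with no filter, 2758 with the block).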
